A study of Mus musculus with 6 samples.

Results

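The genes described here are 43 genes of folliculin and TFEB signalling, of the lysosome and of the autophagosome, taken by name from a list out of 35527 genes quantified in the pancreas of newborn mice. They fall into 10 genes of nutrient sensing, 14 of the lysosome and 19 of the autophagosome, and all 43 were among the 15805 genes with enough reads to be tested. The libraries came from whole pancreas of C57BL/6 mice at 1 day of age, with 3 wild-type mice (WT) and 3 mice lacking the microRNA miR-216a (miR216a-/-, written KO), which received no treatment named in the labels. Each library came from its own mouse, and the labels do not say in which cells or by which construct the microRNA was removed, nor give sex or litter. The comparison asks which of these transcripts differ in level between pancreata with and without miR-216a.

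Folliculin (FLCN) and its partners FNIP1 and FNIP2 form a complex on the lysosome that activates the GTPases RagC and RagD when amino acids are present. Through these GTPases the kinase complex mTORC1 keeps the transcription factors TFEB, TFE3 and MITF phosphorylated and in the cytoplasm, and when nutrients are short the factors enter the nucleus and bind a short E-box motif in promoters of lysosomal and autophagy genes. Autophagy then wraps cytoplasm into a double membrane built by the ULK kinases, the ATG conjugation proteins and the lipidated ATG8 proteins LC3 and GABARAP, and delivers it to the lysosome, where cathepsins and other acid hydrolases digest it. In the acinar cell of the pancreas, which makes and stores digestive enzymes, both lysosomal cathepsins and autophagy are known for their part in the turnover of zymogen granules.

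The microRNA itself is printed first because the KO animals lack it and the search for its sites below rests on its seed, which is bases 2 to 8 of the mature strand and is set in capitals (RefSeq, GRCm38.p6).
mmu-miR-216a-5p, chr11:28757018-28757039, plus strand: uAAUCUCAgcuggcaacuguga
mmu-miR-216a-3p, chr11:28757058-28757079, plus strand: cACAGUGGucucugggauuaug

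A match to the seed of miR-216a-5p in the longest annotated 3′ UTR was found in 4 of the 43 genes (9.3%), against 2742 of the 15126 tested genes with an annotated 3′ UTR (18.1%). The match was searched as an 8mer (TGAGATTA), as a match to bases 2 to 8 (TGAGATT) and as the shorter match that ends opposite an A. The 4 sites are printed with the matched bases in capitals, because they are the matches of these 3 kinds found in those UTRs; shorter matches and the seed of miR-216a-3p were not searched.
Uvrag, an 8mer at base 196 of a 3′ UTR of 2869 bases: gggtaccagtggggccagttcgTGAGATTA
Mitf, at base 1960 of 3174: tgtatgaatggatggccttggTGAGATT
Atp6v1a, at base 1714 of 2022: ctttgcccacactgtagaactTGAGATT
Atg16l1, at base 1016 of 1119: agagtttgtggcgttggaagtTGAGATT
The 4 genes encode a regulator of the autophagic lipid kinase (Uvrag), a transcription factor (Mitf), a catalytic subunit of the proton pump (Atp6v1a) and a part of the LC3 conjugation machinery (Atg16l1). Their KO and WT libraries overlapped in every case, with log2 fold changes of 0.15 ± 0.12 (SE) for Uvrag, 0.18 ± 0.18 for Mitf, -0.06 ± 0.09 for Atp6v1a and 0.03 ± 0.13 for Atg16l1. The value for Uvrag turned to -0.23 when transcript length was taken into account and to -0.24 in the authors' scaled table, and that for Atg16l1 to -0.062 with coding transcripts alone. None of the 11 genes given below for an unadjusted p under 0.05 or groups without overlap holds such a match in its longest 3′ UTR. A match is a description of letters and not a measured site.

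The E-box that TFEB and its relatives bind has the core CACGTG, and its longer forms TCACGTG and TCACGTGA are typical of lysosomal promoters. RefSeq windows of 300 bases (250 before to 50 from the start of transcription) were on hand for 38 of the 43 genes, in 46 windows, and both strands were searched, where each longer form contains the shorter ones. The core stood in 14 of the 46 windows (30.4%), against 7.15% of all 32851 promoter windows. Unlike for the seed matches, this background was not limited to tested genes, and the 43 genes were picked by name for TFEB signalling, lysosome and autophagosome. TCACGTG stood in 11 (23.9%, against 3.77% of all windows) and TCACGTGA in 6 (13%, against 0.974%). The stretches below show the motif in capitals, 5′ to 3′ along the strand of the gene (GRCm38.p6), for 5 genes with TCACGTGA and for 4 others that the results return to.
Mcoln1, chr8:3500457-3500496, plus strand: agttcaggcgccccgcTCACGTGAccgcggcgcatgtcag
Ctsd, chr7:142387903-142387942, minus strand: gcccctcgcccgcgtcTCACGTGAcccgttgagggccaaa
Ctsa, chr2:164833744-164833783, plus strand: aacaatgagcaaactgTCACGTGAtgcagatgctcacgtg
Gla, chrX:134601210-134601249, minus strand: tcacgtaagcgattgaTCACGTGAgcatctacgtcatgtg
Atp6v1a, chr16:44139368-44139407, minus strand: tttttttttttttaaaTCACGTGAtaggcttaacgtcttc
Fnip1, chr11:54438087-54438126, plus strand: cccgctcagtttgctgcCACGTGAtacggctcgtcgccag
Lamp1, chr8:13159083-13159122, plus strand: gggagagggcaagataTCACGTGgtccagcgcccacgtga
Naglu, chr11:101070004-101070043, plus strand: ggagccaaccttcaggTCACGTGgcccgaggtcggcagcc
Bnip3, chr7:138909592-138909631, minus strand: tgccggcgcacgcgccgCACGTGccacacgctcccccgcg
Mcoln1 encodes a calcium channel of the lysosomal membrane, Ctsd and Ctsa a cathepsin protease and a carboxypeptidase, Gla an alpha-galactosidase, and Lamp1 a membrane glycoprotein. The window of Lamp1 holds 4 cores. Ctsa has an upstream window (chr2:164832622-164832921), which holds an annotated GENCODE start but no core. Its printed stretch is from a downstream window (chr2:164833523-164833822), where no such start was found. The full windows of Flcn and Gabarapl1, the 2 genes called most often among the settings tried, are printed because neither holds the core, with the 50 bases from the start of transcription in capitals.
Flcn, chr11:59809990-59810289, minus strand: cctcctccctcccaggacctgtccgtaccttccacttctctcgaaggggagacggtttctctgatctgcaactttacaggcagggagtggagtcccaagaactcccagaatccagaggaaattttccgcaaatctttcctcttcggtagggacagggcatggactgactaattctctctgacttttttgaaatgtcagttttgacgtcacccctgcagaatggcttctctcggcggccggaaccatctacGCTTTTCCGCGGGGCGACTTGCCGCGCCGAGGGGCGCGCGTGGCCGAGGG
Gabarapl1, chr6:129532942-129533241, plus strand: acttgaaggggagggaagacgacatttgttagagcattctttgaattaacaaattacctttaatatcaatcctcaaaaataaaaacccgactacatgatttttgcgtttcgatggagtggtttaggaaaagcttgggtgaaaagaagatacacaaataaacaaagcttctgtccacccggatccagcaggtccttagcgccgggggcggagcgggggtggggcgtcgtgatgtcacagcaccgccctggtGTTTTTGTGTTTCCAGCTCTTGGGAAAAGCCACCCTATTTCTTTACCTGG
No core stood in the windows of Fnip2, Map1lc3b, Ulk1, Pink1, Lamp2, Tfeb, Tfe3 or Mitf either. Of the 11 genes with an unadjusted p under 0.05 or groups without overlap, the windows of Fnip1, Naglu and Bnip3 hold the core.

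The libraries held between 20565387 and 23028718 estimated reads. The genotype label was not checked against the deleted gene, because the precursor of miR-216a was not analysed here. Libraries WT 1 and KO 2 had the highest summed levels of 10 erythroid markers (5950 and 4810 CPM, against 1708 to 2841 in the other 4), and WT 1 had 219 CPM of the liver gene Alb (6.41 to 15.1 in the others). KO 1 had 0.139 CPM of the Y-linked gene Ddx3y, against 61.8 to 102 in the other 5. Acinar markers, which define the labelled tissue, summed to between 166370 and 267700 CPM, and none of the 10 was at 0. Markers of cycling cells were lower in every KO library for all 10 genes, with sums of 839, 897 and 1031 CPM in WT and 633, 406 and 239 CPM in KO. In bulk tissue, fewer cells of a type and less RNA per cell cannot be told apart.

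No gene of the 15805 tested reached an adjusted p under 0.05 (0%) in edgeR's quasi-likelihood test with Benjamini-Hochberg adjustment, and the smallest adjusted p was 0.205, which 159 genes share. None of the 43 genes was therefore called, and what follows describes their levels. The genes and lists were chosen with earlier results of these data known, so their shares are no independent evidence of a difference. At an unadjusted p under 0.05, 8 of the 43 (18.6%) were higher in KO, against 5.62% of all genes tested, and 1 (2.33%) was lower, against 7%. All 3 KO values exceeded all 3 WT values for 9 genes (20.9%), against 9.07% of all genes tested, and lay below them for 1 gene (2.33%), against 10.3%. DESeq2, run as an alternative, called 4 of the 43, Flcn, Fnip2, Gabarapl1 and Bnip3, all higher in KO, where it called 0.947% of 13945 genes as higher and 2.18% as lower. With KO 1 left out, edgeR called Flcn and Gabarapl1 (Benjamini-Hochberg adjusted p of 0.0216 and 0.0403), where it called 0.541% of 16091 genes as higher. Of the 43 genes, 33 had a log2 fold change above 0 (76.7%), against 51.2% of all genes tested, and their median was 0.10, against 0.01 over all genes.

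**Figure D1:**
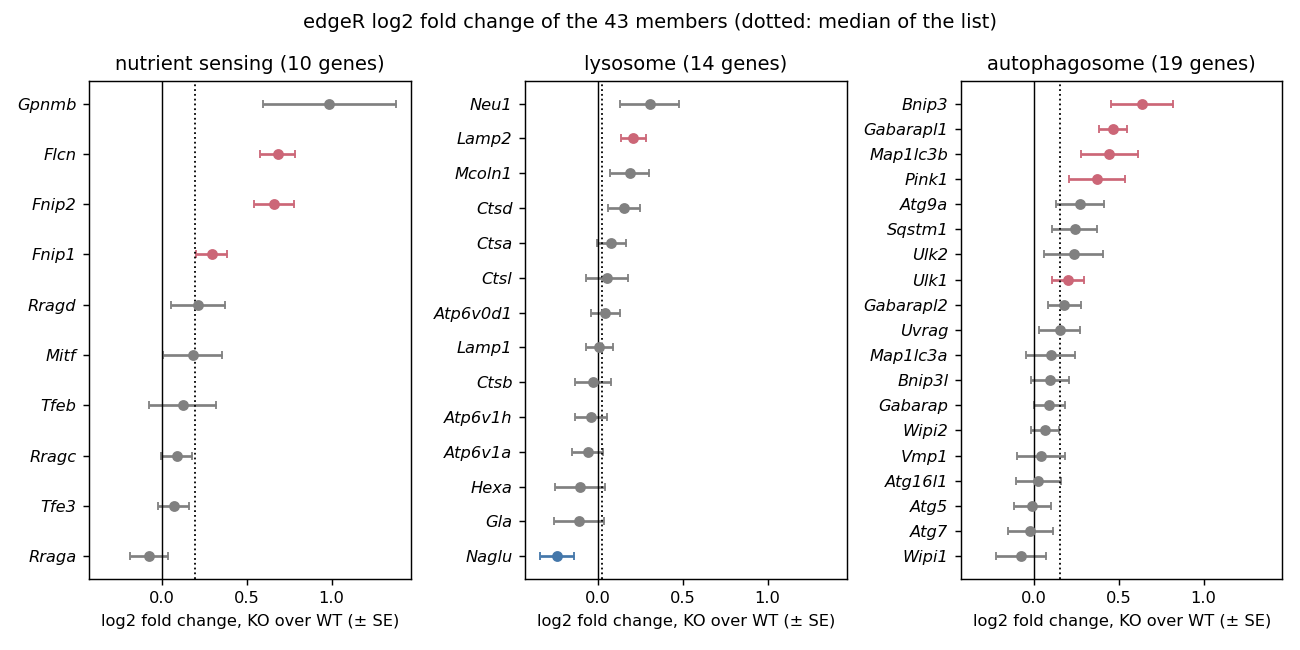
Log2 fold change of KO over WT with its SE for each of the 43 genes, in 3 panels by list, from edgeR. Red marks genes whose 3 KO libraries all lay above the 3 WT libraries (9 genes), blue the gene for which they all lay below (Naglu), and grey genes whose groups overlap. The dotted lines give the medians of the lists, 0.20, 0.03 and 0.15.

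Of the 10 nutrient sensing genes, 9 had a log2 fold change above 0, with a median of 0.20. At an unadjusted p under 0.05, 4 (40%) were higher, against 5.62% of all genes tested. This list too was chosen with earlier results of these data known, so the share is no independent evidence. Among these 4 were the 3 parts of the folliculin complex. The KO libraries all exceeded the WT libraries for Flcn, Fnip1 and Fnip2, and these were the only 3 of the 10 genes without overlap. They make up 30% of the list, where 9.07% of all genes tested lay wholly above WT. Flcn encodes the GTPase-activating partner for RagC and RagD. Its level was 26.3, 23.2 and 23.5 CPM (read counts scaled to library size with TMM factors) in WT 1 to 3 and 35.9, 42.4 and 38.7 CPM in KO 1 to 3. All 3 KO libraries were high and the groups were far apart compared with their own spread, at 24.3 ± 1.69 (SD, n = 3) in WT and 39.0 ± 3.26 in KO. The log2 fold change was 0.68 ± 0.10 (SE), a fold of 1.6, with an adjusted p of 0.205 by edgeR's quasi-likelihood test, and by unadjusted p Flcn ranked 12 among the 15805 genes tested.

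Fnip2 differed by a similar amount. Its level was 30.9, 27.8 and 26.1 CPM in WT and 43.3, 50.4 and 40.4 CPM in KO, with KO 2 the highest and no overlap. On the log2 scale the difference was 0.66 ± 0.12, with an adjusted p of 0.205 by edgeR. Fnip1, its paralogue, stood at 37.1, 37.6 and 35.8 CPM in WT and at 41.9, 48.4 and 45.2 CPM in KO. The WT libraries lay close together and each KO library was above them, with a smaller log2 fold change of 0.29 ± 0.09 and an adjusted p of 0.261 by edgeR.

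Levels per transcript length (TPM) let the 3 genes be added up as parts of one complex. The sum over Flcn, Fnip1 and Fnip2 was 25.8, 26.3 and 21.9 TPM in WT and 35.9, 36.8 and 36.7 TPM in KO, without overlap. Flcn made up 39.3% ± 1.35 (SD, n = 3) of that sum in WT and 43.3% ± 0.83 in KO, while the share of Fnip1 went from 36.3% ± 1.43 to 30.3% ± 1.02 and neither share overlapped between groups. The share of Fnip2 was 24.4% ± 0.22 and 26.4% ± 1.82, with overlap. All 3 genes thus stood higher in KO, with the smallest difference in Fnip1.

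By Salmon's estimate, whose own error was not analysed here, part of the higher level of Flcn lay in a transcript that encodes no protein. Flcn-205, annotated as a retained intron, held 7.94, 9.67 and 7.21 CPM in WT and 16.1, 16.8 and 18.3 CPM in KO, without overlap. The coding transcript Flcn-202 held 8.54, 7.52 and 7.28 CPM in WT and 11.2, 15 and 10.7 CPM in KO, also without overlap, and the other coding transcript, Flcn-203, held 9.65, 5.92 and 8.88 against 8.48, 10.5 and 9.53 CPM, with overlap. As a share of the gene's reads, Flcn-203 was at 36.7, 25.5 and 37.7% in WT and at 23.6, 24.8 and 24.6% in KO, lower in every KO library. Such separation of shares was no more common among the listed genes (5 of 56 transcripts) than among all genes tested (11%). The share of Flcn-205 overlapped, at 30.2, 41.7 and 30.6% in WT and 44.7, 39.7 and 47.3% in KO. With protein-coding transcripts alone, an alternative chosen after the data were seen, the log2 fold change of Flcn was 0.46 with an adjusted p of 0.315 by edgeR, against 0.68 from all its transcripts. For Fnip2 the retained intron Fnip2-205 held 16.5% ± 3.74 of reads in WT and 16.2% ± 2.90 in KO, and the coding-only log2 fold change was 0.69.

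**Figure D2:**
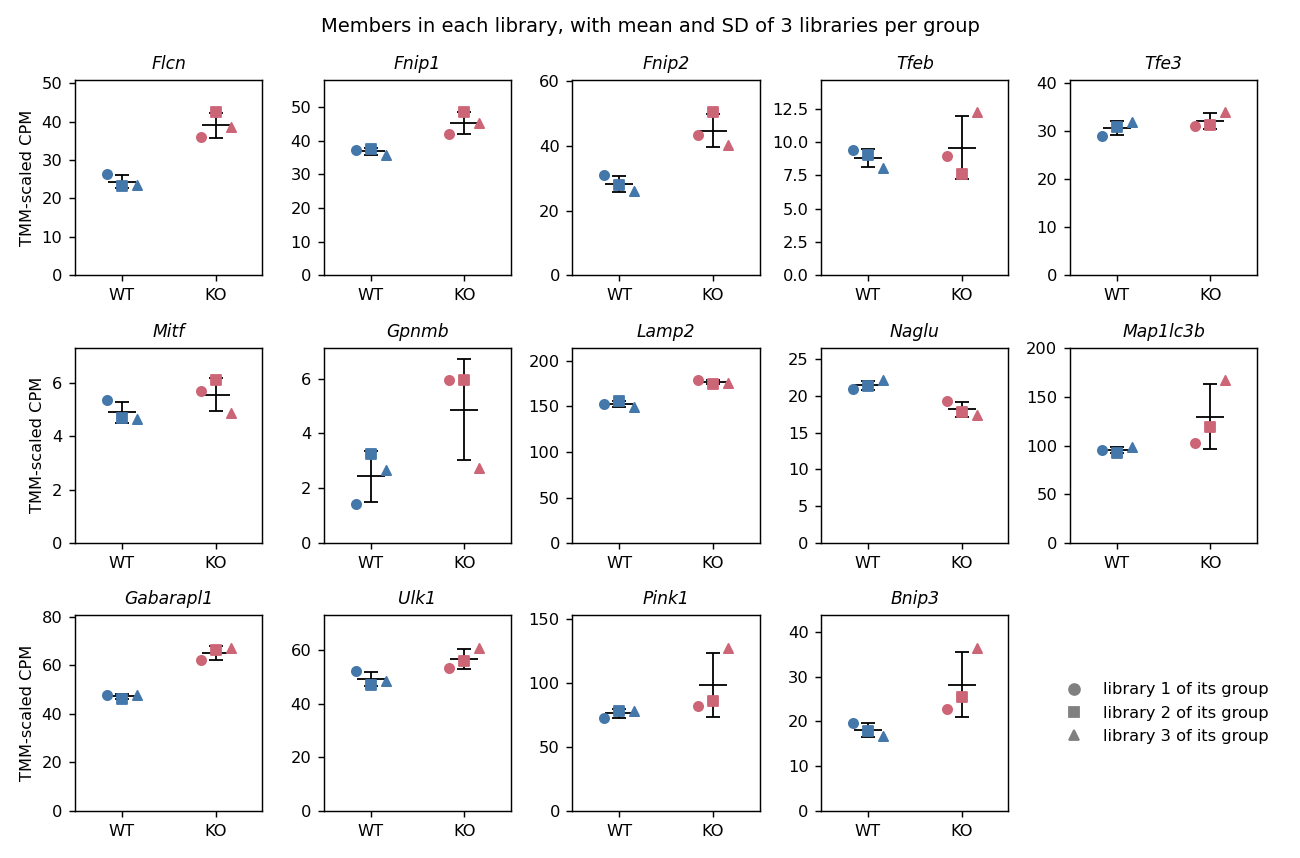
TMM-scaled CPM in each library for the 14 genes given in every library, with horizontal bars for the mean and whiskers for the SD of 3 libraries per group, each axis starting at 0. Marker shape numbers the library within its group. Flcn, Fnip2 and Gabarapl1 show tight, separate groups, while KO 3 stands above the other KO libraries for Map1lc3b, Pink1 and Bnip3.

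The transcription factors downstream of the complex did not separate the genotypes. Tfeb stood at 9.38, 9.02 and 8.07 CPM in WT and at 8.95, 7.57 and 12.2 CPM in KO, with KO 3 the highest and KO 2 the lowest of all 6 libraries. Its log2 fold change was 0.12 ± 0.20, and without KO 3 it was -0.09. Tfe3 stood at 28.9, 30.8 and 31.8 CPM in WT and at 31.0, 31.2 and 33.9 CPM in KO, a log2 fold change of 0.07 ± 0.09. Mitf was at 5.35, 4.69 and 4.65 CPM in WT and at 5.70, 6.10 and 4.87 CPM in KO, a log2 fold change of 0.18 ± 0.18. For both, the groups overlapped. On the TPM scale Tfe3 was the most abundant of the 4 factors of the family, with 57.9% ± 4.75 of their sum in WT and 56.2% ± 1.23 in KO. Tfeb held 30.7% ± 3.60 and 30.5% ± 5.22, Mitf 7.09% ± 0.56 and 6.86% ± 1.65, and Tfec, which is outside the 43 genes, 4.37% ± 1.02 and 6.47% ± 2.56. The levels of these transcripts say nothing of where the proteins sit in the cell.

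Gpnmb, a glycoprotein of lysosomes and melanosomes whose gene is a known target of MITF and TFE3, had the widest difference and the widest error of the 43 genes. Its level was 1.42, 3.25 and 2.66 CPM in WT and 5.94, 5.95 and 2.74 CPM in KO. KO 1 and KO 2 were high and KO 3 lay among the WT libraries. A log2 fold change of 0.99 ± 0.39 came with an adjusted p of 0.354 by edgeR, and it was the lowest of the 43 genes in TPM (1.03 ± 0.47 in WT). Without WT 1 and KO 2, the libraries with the most erythroid RNA, the log2 fold change was 0.55. Gpnmb is also made by macrophages, whose 14 markers summed to 712, 717 and 691 CPM in WT and 710, 702 and 588 CPM in KO, with 12 of the 14 at a lower mean in KO and none at 0; their part in the result was not tested.

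The Rag GTPases that the complex acts on had overlapping groups. Rraga, the gene of RagA, was at 40.8 ± 3.74 CPM (SD, n = 3) in WT and 38.7 ± 3.75 in KO. Rragc was at 44.5 ± 1.83 and 47.3 ± 3.32 CPM. Rragd, itself a known TFEB target, was at 13.8 ± 2.59 and 16.0 ± 1.36 CPM, a log2 fold change of 0.21 ± 0.16. In TPM, Rragc made up 87.0% ± 1.88 of the RagC and RagD pair in WT and 85.4% ± 0.67 in KO, and Rraga 88.2% ± 2.0 and 84.3% ± 3.77 of RagA and RagB, so the more abundant form of each pair was the same in both genotypes.

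A list of 32 further genes for the Rag, Ragulator, GATOR and mTORC1 proteins had 21 log2 fold changes above 0 and 11 below, with a median of 0.10. Of these, 2 had an unadjusted p under 0.05 with higher and 1 with lower levels, and 6 lay wholly above and 2 wholly below WT. These shares, 6.25% and 3.12% by p and 18.8% and 6.25% by separation, stand beside 5.62%, 7%, 9.07% and 10.3% over all genes, so by p the list was near the background. Castor1, a cytosolic arginine sensor of the mTORC1 pathway, was at 3.51, 3.37 and 3.09 CPM in WT and at 4.38, 5.90 and 6.97 CPM in KO (log2 fold change 0.79 ± 0.22). Slc38a9, the lysosomal arginine transporter that signals to the Rag GTPases, was at 21.463, 18.7 and 15.5 CPM in WT and at 21.480, 29.8 and 28.8 CPM in KO, so that KO 1 barely exceeded WT 1 (0.52 ± 0.17). Sesn3, one of the sestrins that restrain mTORC1, was the one on the lower side, at 70.7, 88 and 78.2 CPM in WT and at 65.1, 58.6 and 63.7 CPM in KO (-0.34 ± 0.10). All 3 had adjusted p-values between 0.242 and 0.268 by edgeR.

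The lysosome genes as a list lay near all genes tested. Of the 14, 8 had a log2 fold change above 0 and 6 below, with a median of 0.03, and 1 gene lay wholly above WT and 1 wholly below. These shares, 7.14% each, stood beside 9.07% and 10.3% of all genes tested. Summed levels per length were 1099, 1238 and 1122 TPM in WT and 1253, 1170 and 1321 TPM in KO, with overlap. Lamp2, a main glycoprotein of the lysosomal membrane, was the gene above: 152, 156 and 149 CPM in WT and 179, 175 and 175 CPM in KO. The 3 KO libraries were nearly equal and stood clear of WT, with a log2 fold change of 0.21 ± 0.07 and an adjusted p of 0.310 by edgeR. Its 2 main transcripts were Lamp2-201, with 27.2% ± 1.94 of the reads in WT and 32.5% ± 4.31 in KO, and Lamp2-202, with 71.4% ± 1.69 and 65.7% ± 4.56, and both shares overlapped. Lamp1, the sister glycoprotein, was at 227.8 ± 10.4 CPM in WT and 229.0 ± 3.81 in KO, a log2 fold change of 0.01 ± 0.08.

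Naglu, the alpha-N-acetylglucosaminidase that degrades heparan sulfate, was the only one of the 43 genes with every KO library below WT. It stood at 20.9, 21.3 and 22.1 CPM in WT and at 19.3, 17.7 and 17.4 CPM in KO. On the log2 scale the difference was -0.24 ± 0.10, with an adjusted p of 0.374 by edgeR. The promoter stretch of Naglu printed above holds TCACGTG, and that of Fnip1, a gene with higher KO levels, holds it on the opposite strand.

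The other hydrolases and the proton pump had overlapping groups. Ctsl, a cysteine cathepsin, was the most abundant of all 43 genes in TPM (328 ± 15.1 in WT and 360 ± 29.6 in KO) and held 43.3% ± 2.89 and 43.5% ± 2.13 of the TPM of Ctsa, Ctsb, Ctsd and Ctsl together. Ctsb, which can activate trypsinogen in acinar cells, was at 386.6 ± 39.0 CPM in WT and 378.9 ± 23.6 in KO. Ctsd, the aspartic protease, was at 280.1 ± 14.5 and 311.8 ± 22.1 CPM, with a log2 fold change of 0.15 ± 0.09, and Ctsa, the protective protein of Neu1, was at 96.9 ± 3.54 and 102 ± 7.57 CPM. Neu1, the lysosomal sialidase, had the largest log2 fold change of the list, 0.30 ± 0.17, but KO 1 was at 23 CPM, inside the WT range of 22 to 27.2, while KO 2 and KO 3 were at 32.5 and 36.7. It was 0.16 without KO 3, 0.48 without KO 1 and 0.18 with coding transcripts alone. Hexa, a subunit of beta-hexosaminidase, and Gla had log2 fold changes of -0.10 ± 0.15 and -0.11 ± 0.15. Mcoln1 was at 25.4 ± 1.60 CPM in WT and 28.9 ± 3.44 in KO. The V-ATPase subunits Atp6v1h, Atp6v0d1 and Atp6v1a had log2 fold changes of -0.04, 0.04 and -0.06.

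Of the 6 genes with TCACGTGA in a promoter window, none had separate groups, and their log2 fold changes were 0.19 for Mcoln1, 0.15 for Ctsd, 0.08 for Ctsa, 0.04 for Atp6v0d1, -0.06 for Atp6v1a and -0.11 for Gla. Of the 4 genes that DESeq2 called, Flcn, Fnip2 and Gabarapl1 have no core in their windows and Bnip3 has one. These windows cover 300 bases only and say nothing about factor binding elsewhere.

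Further lysosomal genes were counted in the same way. For 18 tested V-ATPase subunits of 22 listed, 9 log2 fold changes were above 0 and 9 below, with a median of -0.02. None had an unadjusted p under 0.05. Of the 18, 2 (11.1%) lay wholly above and 0 wholly below WT, against 9.07% and 10.3% of all genes tested. For 45 further lysosomal enzymes, membrane and sorting proteins, 30 were above 0 and 15 below, with a median of 0.04. At an unadjusted p under 0.05, 4 (8.89%) were higher and 2 (4.44%) lower, against 5.62% and 7% of all genes tested. In this list 7 genes (15.6%) lay wholly above WT and 3 (6.67%) wholly below, against 9.07% and 10.3% of all genes tested. Ctsf, a cysteine cathepsin, was at 28.9, 32.7 and 29.2 CPM in WT and at 38.2, 43.5 and 51.7 CPM in KO (log2 fold change 0.56 ± 0.13). Ctns, the cystine exporter, was at 12.8, 11.3 and 12.2 CPM and at 16.2, 18.1 and 15.3 CPM (0.45 ± 0.12), and the peptidase Tpp1 differed by 0.21 ± 0.09, which became 0.12 with transcript length taken into account. Gusb, beta-glucuronidase, was at 63.7, 70.7 and 71.5 CPM in WT and at 50.7, 55.0 and 54.8 CPM in KO (-0.36 ± 0.09), and Arsb, arylsulfatase B, differed by -0.29 ± 0.10. Both enzymes degrade glycosaminoglycans. These 5 genes had adjusted p-values between 0.206 and 0.379 by edgeR.

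Autophagosome genes were mostly above WT by small amounts. Of the 19 genes, 16 had a log2 fold change above 0, with a median of 0.15. By an unadjusted p under 0.05, 3 (15.8%) were higher and 0 lower, against 5.62% and 7% of all genes tested. The groups were separate for 5 genes (26.3%), all higher in KO, where 9.07% of all genes tested were wholly above WT and 10.3% wholly below. Like the other lists, this one was picked with earlier results known, so these shares are no independent evidence. Gabarapl1, an ATG8 protein of the GABARAP branch, separated most clearly. It stood at 47.5, 46.1 and 47.8 CPM in WT and at 61.9, 66.1 and 67.1 CPM in KO. The 3 WT libraries lay close together and even the lowest KO library stood well above them. The log2 fold change was 0.47 ± 0.08, with an adjusted p of 0.205 by edgeR, and over 17 alternative settings it stayed between 0.44 and 0.50.

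Map1lc3b, which encodes LC3B, the usual marker of autophagosomes, was at 95.1, 92.1 and 98.6 CPM in WT and at 103, 119 and 167 CPM in KO. KO 3 was far above the other KO libraries and KO 1 little above WT. The log2 fold change was 0.45 ± 0.17 with an adjusted p of 0.325 by edgeR, and without KO 3 it was 0.22. The retained-intron transcript Map1lc3b-202 held 12.7% ± 1.32 of the gene's reads in WT and 19.3% ± 4.87 in KO, where the shares were 13.7, 22.4 and 21.9%, and the groups overlapped. With protein-coding transcripts alone the log2 fold change was 0.33.

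The other 3 ATG8 genes had overlapping groups. Gabarap, Gabarapl2 and Map1lc3a had log2 fold changes of 0.09 ± 0.09, 0.18 ± 0.10 and 0.10 ± 0.14. On the TPM scale Gabarap was the most abundant, at 51.2% ± 1.52 of the family's sum in WT and 48.0% ± 3.39 in KO. Gabarapl1 had the smallest share, 8.62% ± 0.25 in WT and 10.7% ± 0.53 in KO, without overlap between the groups. The whole family summed to 399, 431 and 361 TPM in WT and to 426, 430 and 523 TPM in KO, with KO 3 the highest and the groups overlapping. TPM carry no TMM factors, unlike the CPM values (1.09 for WT 2 and 0.92 for KO 2), so this overlap holds for the TPM scale only.

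**Figure D3:**
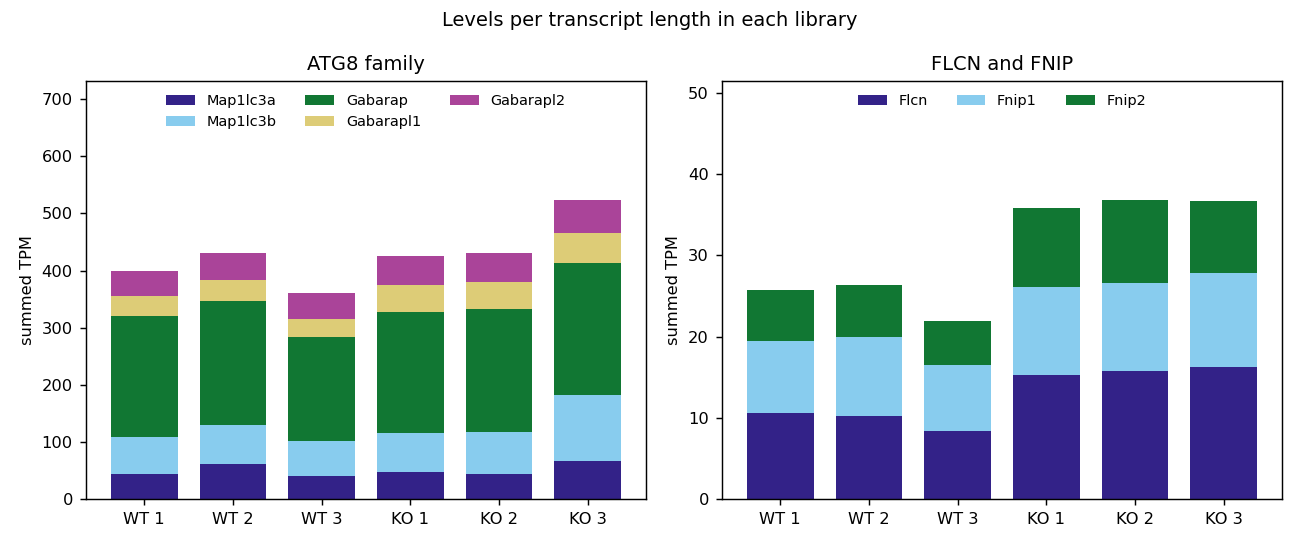
Summed TPM in each library, stacked by gene, for the 5 ATG8 genes (left) and for Flcn, Fnip1 and Fnip2 (right), both axes starting at 0. On this scale, which carries no TMM factors, the ATG8 sums overlap between groups and are highest in KO 3 (523 TPM). The FLCN and FNIP sums of KO (35.9 to 36.8 TPM) all exceed those of WT (21.9 to 26.3 TPM).

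Selective autophagy of mitochondria is represented by Pink1, a kinase that marks damaged mitochondria, and by the mitophagy receptors Bnip3 and Bnip3l. Bnip3 stood at 19.7, 18 and 16.7 CPM in WT and at 22.7, 25.4 and 36.4 CPM in KO, with no overlap and KO 3 the highest. The log2 fold change was 0.64 ± 0.18 with an adjusted p of 0.249 by edgeR, and without KO 3 it was 0.41. Pink1 was at 72.7, 78.2 and 78.3 CPM in WT and at 82.3, 86.5 and 128 CPM in KO. Its log2 fold change of 0.37 ± 0.16 had an adjusted p of 0.404 by edgeR and became 0.14 without KO 3. Bnip3l, the paralogue of Bnip3 that clears mitochondria from maturing red cells, was at 83.9 ± 11.5 CPM in WT and 89.6 ± 4.34 in KO, and its log2 fold change of 0.09 turned to -0.11 when transcript length was taken into account.

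Sqstm1, the p62 receptor that links ubiquitin to LC3, was at 133, 149 and 148 CPM in WT and at 146, 158 and 204 CPM in KO. KO 3 was again the highest library while KO 1 lay among WT, and the log2 fold change of 0.24 ± 0.13 became 0.086 without KO 3. KO 3 was the highest of the 6 libraries for 20 of the 43 genes (46.5%), against 24.2% of all genes tested, and KO 2 for 11 (25.6%, against 18.1%). KO 3 also had the lowest sum of cycling-cell markers (239 CPM) and of macrophage markers (588 CPM); the part of these in the result was not tested.

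**Figure D4:**
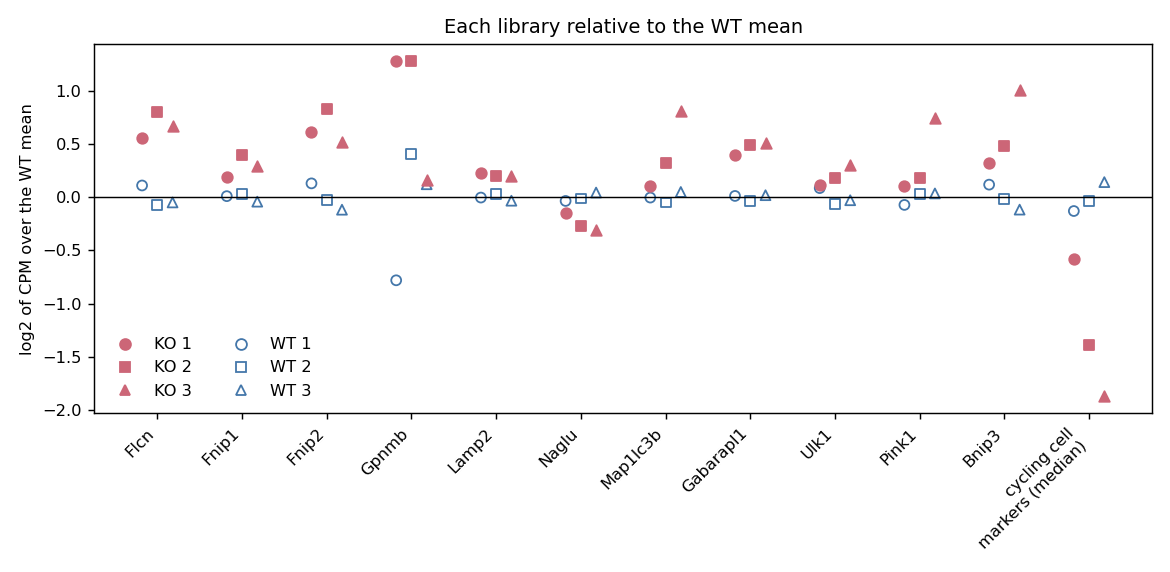
Log2 of each library's CPM over the WT mean for the 11 genes with an unadjusted p under 0.05 or without overlap, and the median of the same quantity over 10 cycling-cell markers at the right. Filled symbols are KO and open symbols WT libraries. KO 1, KO 2 and KO 3 are close together for Flcn, Lamp2 and Gabarapl1, whereas KO 3 stands apart for Map1lc3b (0.81), Pink1 (0.74) and Bnip3 (1.01) and KO 1 and KO 2 for Gpnmb (1.28 each).

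The initiating kinase Ulk1 was at 52.4, 47.2 and 48.4 CPM in WT and at 53.3, 55.9 and 60.9 CPM in KO. KO 1 barely exceeded WT 1, and the log2 fold change was 0.20 ± 0.09 with an adjusted p of 0.423 by edgeR. Ulk2 overlapped, at 33.1 ± 7.0 and 38.9 ± 6.48 CPM, and in TPM Ulk1 made up 70.5% ± 5.06 of the pair in WT and 71.6% ± 6.61 in KO. Atg9a, the lipid scramblase on autophagy vesicles, was at 32.7, 33.3 and 33.4 CPM in WT and at 31.7, 41.8 and 46.4 CPM in KO, a log2 fold change of 0.27 ± 0.14 that was 0.15 without KO 3 and 0.41 without KO 1. The conjugation genes Atg5, Atg7 and Atg16l1 lay near 0, with log2 fold changes of -0.01 ± 0.11, -0.02 ± 0.13 and 0.03 ± 0.13. The phosphoinositide-binding genes Wipi1 and Wipi2 had values of -0.07 ± 0.15 and 0.06 ± 0.08, and Vmp1, a membrane protein that drives vacuole formation in acinar cells, 0.04 ± 0.14.

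The reads of Atg16l1 were split differently between its transcripts. Its coding transcript Atg16l1-202 held 36.8, 40.3 and 47.4% of the gene's reads in WT and 19.7, 23.3 and 33.0% in KO. The retained intron Atg16l1-204 held 18, 14.2 and 17.4% in WT and 18.3, 22.3 and 22.1% in KO. Neither share overlapped, though the second differed by little between WT 1 and KO 1. Of 56 transcripts with at least 10% of the reads in 24 such genes, 5 had shares without overlap, against 11% of the 18970 such transcripts of all genes tested, so the count is no more than that background. Besides the pair of Atg16l1 these were Flcn-203, Atg9a-209 (18.6% ± 5.11 in WT and 28.6% ± 1.85 in KO) and Bnip3l-201 (83.9% ± 0.97 and 86.7% ± 0.47). Of these 56, 17 were not coding, and the split of reads between transcripts is an estimate by Salmon whose own error was not analysed here.

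Other autophagy genes, 36 in number, lay on the same side as the autophagosome list, with 32 log2 fold changes above 0 and 4 below and a median of 0.15. At an unadjusted p under 0.05, 6 (16.7%) were higher and 0 lower, against 5.62% and 7% of all genes tested. Wholly above WT lay 10 (27.8%) and wholly below 0, against 9.07% and 10.3% of all genes tested. Calcoco1, an autophagy receptor of the endoplasmic reticulum, was at 43.1, 39.4 and 36.1 CPM in WT and at 51.0, 55.1 and 69.1 CPM in KO (log2 fold change 0.56 ± 0.13). Atg2b, a lipid transfer protein, differed by 0.32 ± 0.10, which became 0.15 with transcript length taken into account, and Rb1cc1, the FIP200 scaffold of the ULK complex, by 0.31 ± 0.10. Their adjusted p-values were between 0.206 and 0.268 by edgeR. Of 14 receptors and regulators of ER-phagy and mitophagy, 7 were above 0 and 7 below, and Retreg1, the ER-phagy receptor FAM134B, was at 32.7, 26.8 and 32.5 CPM in WT and at 36.0, 51.8 and 73.8 CPM in KO (0.82 ± 0.24, adjusted p 0.251 by edgeR), with KO 3 again the highest and a log2 fold change of 0.52 without it.

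**Figure D5:**
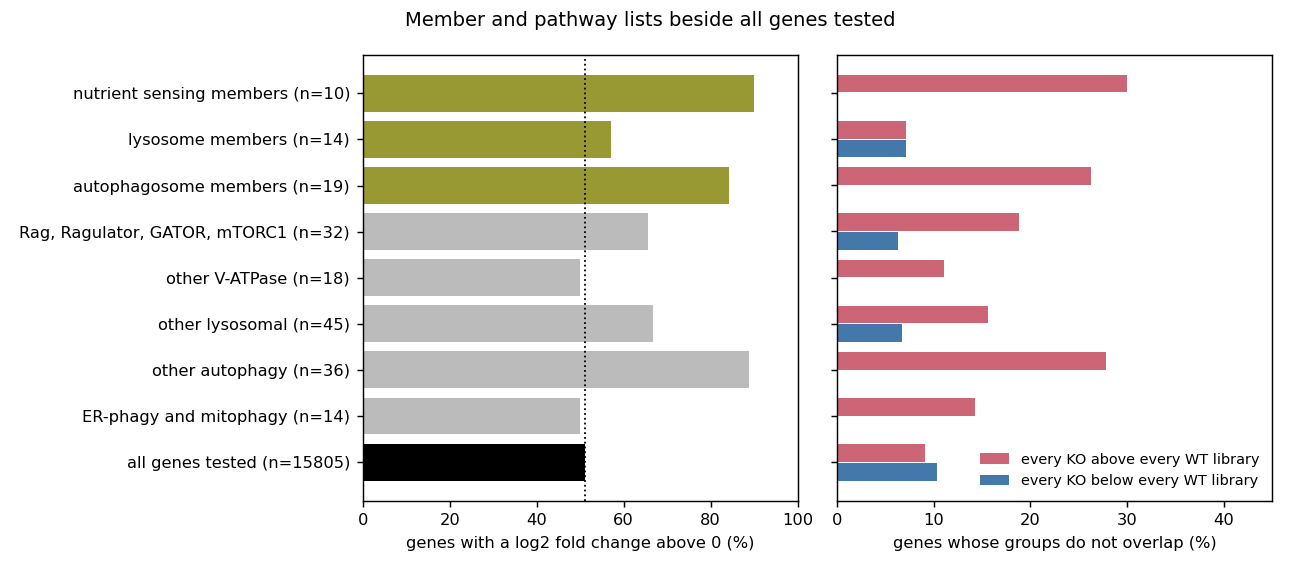
Left, the percent of genes in each list with a log2 fold change above 0, with the number of genes tested in brackets and a dotted line at the value for all genes tested (51.2%). Right, the percent of genes whose 3 KO libraries all lay above (red) or all below (blue) the 3 WT libraries, which over all genes tested was 9.07% and 10.3%. Nutrient sensing, autophagosome and other autophagy genes have the longest bars on the left, and V-ATPase and lysosome genes lie near all genes.

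On the chromosomes the 43 genes are spread over 16, and 8 of them, Flcn, Fnip1, Naglu, Sqstm1, Ulk2, Gabarap, Vmp1 and Wipi1, share chromosome 11 with Mir216a (28757012 to 28757083, GRCm38). Fnip1 (54438199 to 54518235, plus strand) lies 25.7 Mb and Flcn (59791408 to 59810016, minus strand) 31.0 Mb from Mir216a, and the nearest of the 8 is Sqstm1 at 21.4 Mb. Of these 8 genes, 3 had separate groups, Flcn and Fnip1 above and Naglu below, where 9.56% of the 1255 tested genes of chromosome 11 lay wholly above WT and 11.3% wholly below. Fnip2 (chromosome 3), Gabarapl1 (chromosome 6) and Lamp2 (chromosome X) lie elsewhere. Whether sequence near the deleted gene differs between the KO and WT animals was not tested.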

How the data were processed

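Whole-pancreas libraries of 3 WT and 3 KO mice, grouped by the genotype label, were compared. Per the submitters' processing notes, bcl2fastq, Salmon 0.13.1, DESeq2 1.24.0 and the build mm10 were used; which transcript set Salmon used is not stated in the sources used here. The authors deposited estimated counts and TPM per transcript for each library, and for the series a table of scaled signal, used in 1 alternative only. Of 116248 transcripts, 115995 matched GENCODE M21 by versioned identifier, and the rest held 0.034 to 0.046% of reads. Estimated counts were summed to genes and rounded with Python 3.11.15 and pandas 2.3.3. TPM were summed per gene as deposited by the authors. Libraries differed by a chi-square per degree of freedom of 21.1 to 80.3, so each counted as 1 sample.

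Genes were tested in R 4.3.3 with the quasi-likelihood test of edgeR 4.0.16 (TMM, filterByExpr, Benjamini-Hochberg adjustment over 15805 genes, threshold 0.05), tested on simulated data. Errors are SDs over libraries or SEs of the fit. Alternatives used limma 3.58.1, DESeq2 1.42.0, other scalings and filters, and left-out libraries. Values in every library are given for Flcn, Tfeb, Tfe3, Mitf and each listed gene with an unadjusted p under 0.05 or groups without overlap; of each further list, up to 3 genes per direction with the smallest p under 0.05, at least 1 CPM and no overlap. Values in every library for Sqstm1, Atg9a and Neu1 were added after their values were seen. The genes and lists were chosen with earlier results of these data known. Promoter windows of 5 genes were not used here. E-box matches and seed matches are descriptions without a test.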

Additional observations from a re-analysis of the deposited data

How the results depend on the processing

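All 11 genes named for their p or their separate groups kept their direction in the 17 alternatives, which leave out 1 library, change scaling, filter, tool, transcript length or transcript type, or leave out WT 1 and KO 2 together. Genes called numbered 0, and 1 without a filter, 436 with DESeq2, 2 with limma-voom, 3 with limma on the authors' scaled table, 2 without WT 1 and KO 2, and 0 to 362 with 1 library left out, the highest without KO 1. Of the 43 genes, DESeq2 called 4, and leaving out 1 library gave 0 to 2, with Flcn and Gabarapl1 called without KO 1 (where 0.541% of 16091 genes were called as higher). Genes wholly above WT numbered 11 to 16 with 1 library left out and 17 without WT 1 and KO 2, where fewer libraries make separation easier; genes wholly below numbered 1 to 2, and 2 without that pair. At an unadjusted p under 0.05 there were 9 genes, 6 to 13 with 1 library left out (the highest without KO 1), 11 with transcript length taken into account, 6 with the authors' table and 4 without that pair. These counts by separation and by p are given without the share of all genes in the same setting, so they cannot be read against a background. The lysosome median of 0.03 ranged from -0.0101 to 0.0391 with 1 library left out and was -0.0383 without that pair.

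Among the other genes, 16 changed sign in at least 1 setting, mostly those near 0. With transcript length taken into account and with the authors' table, the log2 fold changes were 0.0155 and 0.016 for Atg5, -0.11 and -0.10 for Bnip3l, and -0.23 and -0.24 for Uvrag. Coding transcripts alone gave -0.062 for Atg16l1, upper-quartile scaling gave -0.0154 for Lamp1, and leaving out WT 1 and KO 2 gave -0.0234 for Lamp1 and -0.0533 for Ctsl. With 1 library left out the ranges crossed 0 for Atg16l1 (-0.10 to 0.10), Atg5 (-0.0466 to 0.0443), Atg7 (-0.11 to 0.0589), Atp6v0d1 (-0.0016 to 0.074), Atp6v1a (-0.10 to 0.0079), Atp6v1h (-0.076 to 0.0252), Ctsb (-0.11 to 0.0336), Ctsl (-0.0366 to 0.15), Hexa (-0.24 to 0.0205), Lamp1 (-0.0295 to 0.0372), Map1lc3a (-0.0467 to 0.20), Tfeb (-0.0941 to 0.26), Vmp1 (-0.0845 to 0.15) and Wipi1 (-0.20 to 0.0645). The cause was not tested. No paired analysis was possible because the replicate numbers follow sample order only.

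The limits are the 3 mice in each group, sex and litter that the labels do not give, and reads from many cell types. Leaving out KO 1 raised the calls. KO 1 has by far the fewest Ddx3y reads, and of the KO libraries it also has the highest sum of cycling-cell markers (633 CPM, against 406 and 239). The cause of the rise was not tested. Gpnmb, the lowest in TPM, has the largest SE.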

Other observations

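Summed levels of markers of other cell types differed with genotype in part. Endothelial markers were at 562, 473 and 482 CPM in WT and at 565, 580 and 581 CPM in KO, with 5 of 6 genes at a higher mean in KO. The 6 adipocyte markers summed to 48.5, 47.9 and 36.7 CPM in WT and to 53.7, 95.4 and 116 CPM in KO. Only Pparg and Fabp4 of them had enough reads to be tested. Most of that sum was Fabp4, at 44.9, 45.7 and 34.3 CPM in WT and 50.1, 91.9 and 112 CPM in KO. Lep was at 0 in every library, and Adipoq, Cidec and Plin1 reached at most 0.051, 0.094 and 0.65 CPM. The sum therefore mostly follows 1 gene and is no measure of adipocytes. Endocrine markers were at 7111, 9140 and 7671 CPM in WT and at 6654, 6966 and 6325 CPM in KO, with 5 of 10 genes at a higher mean in KO and 5 at a lower one, Ins1 and Ins2 among the lower. Mesenchymal markers were lowest in KO 2 (6446 CPM, against 9763 to 12032 in the other libraries). Their part in the levels of the autophagy and lysosome genes was not tested.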
